A study of Mus musculus with 4 samples.

Results

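Collagen chain genes were taken as every gene of the deposited table named Col, a type number, the letter a and a chain number, which gave 43 of 21420 genes. Collagens are matrix proteins built from 3 such chains wound into a triple helix. Fibrillar collagens assemble into the tension-bearing fibrils of connective tissue, type IV collagen forms the sheet-like network of basement membranes, and type VI collagen forms beaded microfibrils. In the lung the fibrillar chains come mainly from fibroblasts, and type IV chains from endothelial and epithelial cells. RNA came from mouse lung tumours taken 10 weeks after intranasal Ad-Cre, an adenovirus carrying the recombinase Cre, and the cells are labelled CD45-. The KL group (2 libraries) and the KL25 group (2 libraries) both carried Lkb1fl/fl, a floxed tumour suppressor kinase gene, and KL25 was also Usp25-/-, lacking a deubiquitinase. The design text gives 2 mice per group, and neither the promoter driving Cre nor the age of the mice is given in the sources used here. The comparison asked which transcripts differed with loss of Usp25.

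The deposited values per library were read as FPKM, fragment counts scaled to transcript length and library depth, so that levels of different chains can be compared per length. Pairs of values below give replicate 1 and then replicate 2 of a group. The targeted gene Usp25 was at 2.65 and 1.71 FPKM in the KL25 libraries and 38.5 and 16.6 in those of KL. Summed over genes, the deposited mean count came to 10564266 per library, and relative depth, read as size factors, ranged from 0.823 in KL25 replicate 2 to 1.30 in KL replicate 1. Across genes, KL replicate 1 correlated with the rest at 0.874 to 0.885, and the rest with each other at 0.933 to 0.967, so it stood apart. Each library held leukocyte transcripts despite the CD45- label: 8 leukocyte markers summed to 1570 and 1760 FPKM in KL25 against 2890 and 2290 in KL, and Ptprc, which encodes CD45, was at 43.3 to 123 FPKM. These are bulk samples, so fewer cells of a type and less RNA per cell cannot be told apart.

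Promoter windows are shown for the chains on which the results turn, from RefSeq on GRCm38.p6, each running from 250 bases before the annotated start site to 50 bases from it on, 5′ to 3′ on the strand of the gene. Capitals mark matches to short promoter motifs, each searched on both strands. They are CCAAT, the binding motif of nuclear factor Y, TATAAA, the core of the promoter element that positions the polymerase, and GGGCGG, known as the core recognised by Sp family factors. RefSeq start sites can differ from the GENCODE gene ends given further on.
Col18a1, chr10:77166481-77166780, minus strand: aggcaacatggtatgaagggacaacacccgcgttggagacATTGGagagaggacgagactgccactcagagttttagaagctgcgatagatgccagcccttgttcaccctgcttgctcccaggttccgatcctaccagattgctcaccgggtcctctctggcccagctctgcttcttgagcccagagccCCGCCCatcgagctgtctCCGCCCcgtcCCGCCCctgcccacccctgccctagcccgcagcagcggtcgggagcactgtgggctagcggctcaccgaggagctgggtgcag
Col1a2, chr6:4505368-4505667, plus strand: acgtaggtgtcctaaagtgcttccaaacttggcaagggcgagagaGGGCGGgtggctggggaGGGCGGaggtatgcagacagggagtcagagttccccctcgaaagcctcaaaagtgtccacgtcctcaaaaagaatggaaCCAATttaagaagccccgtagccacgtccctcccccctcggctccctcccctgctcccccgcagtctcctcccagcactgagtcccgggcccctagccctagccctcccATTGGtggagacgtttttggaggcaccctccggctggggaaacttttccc
Col3a1, chr1:45311288-45311587, plus strand: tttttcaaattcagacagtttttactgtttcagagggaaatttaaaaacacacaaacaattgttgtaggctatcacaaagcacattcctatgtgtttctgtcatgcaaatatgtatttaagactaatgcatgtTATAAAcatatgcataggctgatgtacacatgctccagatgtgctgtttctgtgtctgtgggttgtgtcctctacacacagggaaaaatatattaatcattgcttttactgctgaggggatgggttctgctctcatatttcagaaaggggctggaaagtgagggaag
Col4a1, chr8:11312777-11313076, minus strand: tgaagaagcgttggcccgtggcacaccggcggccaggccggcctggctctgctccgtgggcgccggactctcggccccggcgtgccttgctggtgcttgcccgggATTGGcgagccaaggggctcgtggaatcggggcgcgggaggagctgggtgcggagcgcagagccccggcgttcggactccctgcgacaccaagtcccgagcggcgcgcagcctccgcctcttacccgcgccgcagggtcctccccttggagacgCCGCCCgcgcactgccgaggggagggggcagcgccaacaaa
Col4a2, chr8:11312555-11312854, plus strand: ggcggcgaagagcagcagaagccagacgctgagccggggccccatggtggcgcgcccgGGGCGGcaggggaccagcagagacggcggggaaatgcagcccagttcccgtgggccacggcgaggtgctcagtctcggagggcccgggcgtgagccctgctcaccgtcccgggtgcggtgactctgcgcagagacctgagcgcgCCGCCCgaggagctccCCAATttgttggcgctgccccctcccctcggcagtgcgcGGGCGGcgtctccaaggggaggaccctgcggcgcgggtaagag
Col4a1 and Col4a2 lie head to head: their windows share 78 bases, and 1 GGGCGG match lies in both windows. The Col18a1 window holds 3 GGGCGG matches, at 61, 43 and 33 bases before the start site, and 1 CCAAT match. Col1a2 holds 2 CCAAT and 2 GGGCGG matches, whereas Col3a1, also a fibrillar chain, holds 1 TATAAA match and neither of the others. RefSeq gives Col18a1 a second start site, whose window (chr10:77113656-77113955) holds none of these motifs. In all, 35 of the 43 chains had a window, and some had more, which gave 38 windows. Of these windows 23, from 22 chains, held GGGCGG. The motif CCAAT was found in 13 windows and TATAAA in 5, each from as many chains. Of all 32851 promoter windows of this length, 35.7% hold GGGCGG. The shares for the other motifs are 37.4% for windows with CCAAT and 13.6% for windows with TATAAA. These matches describe the letters in the window and nothing about binding.

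Of the 43 chains, 13 averaged 1 FPKM or more in KL25 or in KL, the level required for the test across all genes, and the other 30 lay below it. The chains nearest the limit were Col14a1, at a mean of 1.00 FPKM in KL25, and Col4a5, at 0.976 FPKM in KL25. Of the 13 chains, 3 (Col5a1, Col11a2 and Col14a1) reached the limit through 1 group only, so counts over the 13 are a description and not support for a difference. Collagen transcripts were a small share of these preparations. The 43 chains summed to 91.0 and 155 FPKM in KL25 against 85.6 and 108 in KL, which was 0.0160% to 0.0295% of all FPKM. KL25 replicate 2 held the most collagen signal, while KL25 replicate 1 lay between the KL libraries.

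**Figure D1:**
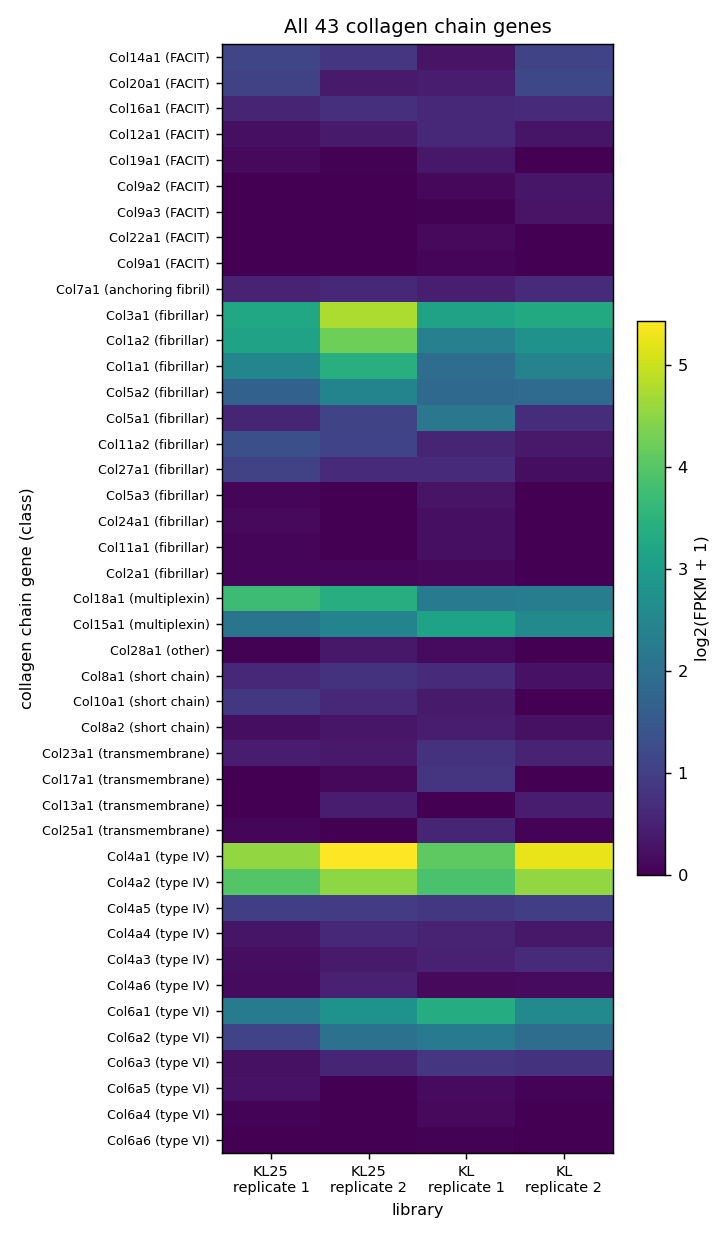
Level of each of the 43 collagen chain genes in each library, as log2(FPKM + 1) by colour, with chains in rows grouped by structural class. Col4a1 and Col4a2 are the brightest rows, and most transmembrane, short chain and fibril-associated rows are near 0 in every library.

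The basement membrane pair Col4a1 and Col4a2 made up the largest part of the collagen signal, with 40.7% and 41.0% of it in KL25 and 34.6% and 55.6% in KL. Type I and type III chains together (Col1a1, Col1a2 and Col3a1) made up 22.8% and 34.5% in KL25 and 17.3% and 17.8% in KL. The share of these fibrillar chains was thus higher in both KL25 libraries, and the share of the type IV pair overlapped between groups. Type VI chains held 16.5% of the signal in KL replicate 1 and 5.84% to 7.95% in the other libraries. Multiplexins, the family of Col15a1 and Col18a1, held 16.9% and 8.91% in KL25 and 13.6% and 8.19% in KL.

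**Figure D2:**
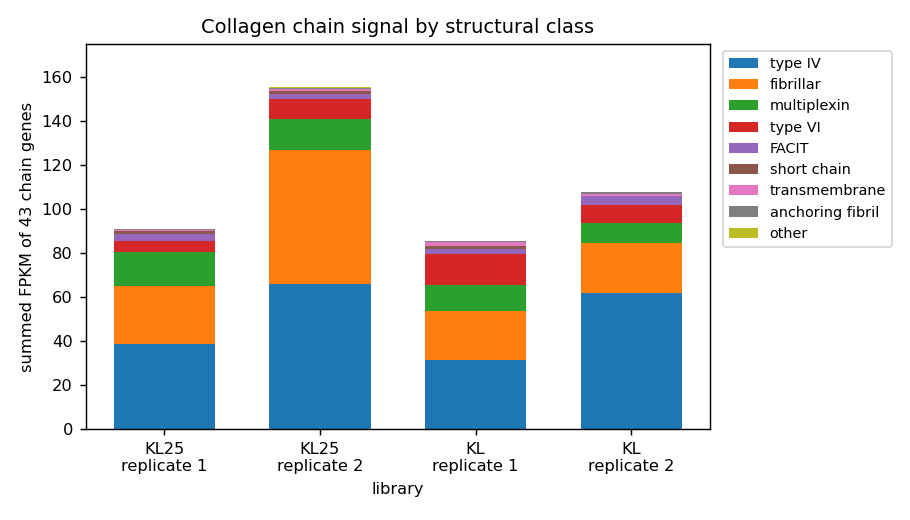
Summed FPKM of the 43 collagen chain genes in each library, stacked by structural class (1 bar per library). KL25 replicate 2 has the tallest bar (155 FPKM), with 61.1 FPKM of fibrillar chains against 22.5 to 26.3 FPKM in the other libraries.

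Col18a1 was the collagen chain with the clearest difference between the groups, and it was higher in KL25. It encodes the chain of type XVIII collagen, a basement membrane proteoglycan whose C-terminal fragment is endostatin, and lies on chromosome 10 from 77052178 to 77166548 (GRCm38, minus strand). It was at 12.1 and 9.41 FPKM in the KL25 libraries and 3.77 and 3.84 in those of KL. The groups did not overlap, and the KL libraries were nearly equal. The means were 10.7 ± 1.90 and 3.81 ± 0.0540 FPKM (SD, n = 2 each), a 2.83-fold higher mean in KL25. In the authors' deposited table its log2 fold change is 1.38 (SE 0.311) with an adjusted p of 0.0139. That table holds 13 genes higher at an adjusted p below 0.05 (0.088% of genes with such a value) and 5 lower (0.0339%). Col18a1 is the only one of the 43 chains among them. On the log2(FPKM + 1) scale the difference was 1.28 (SE 0.285), with an adjusted p of 0.942 and an unadjusted p of 0.00579 in limma, so it did not pass. Without each library in turn the difference was 1.11 to 1.45.

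Epithelial markers were also higher in KL25. The 6 epithelial markers (Epcam, Cdh1, Cldn7 and 3 keratins) summed to 3220 and 1240 FPKM in the KL25 libraries and 798 and 716 in those of KL, and for each of the 6 KL25 lay above KL without overlap, as for 19.1% of all genes tested. Divided by that sum, Col18a1 stood at 0.00375 and 0.00758 in KL25 and at 0.00472 and 0.00537 in KL, so that the groups overlapped. The 3 keratins held the largest values of the 6 markers in each library, so the sum mainly reflects keratin levels. Cdh1 differed less than the keratins, at 62.3 and 40.3 FPKM in KL25 against 36.8 and 24.8 in KL. Ratios to single markers were not computed. The part of epithelial content in the Col18a1 difference was not tested. This ratio, and those to other marker sums below, were chosen after the values were seen.

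Col15a1, the other multiplexin, had both KL25 values under both KL values. Type XV collagen anchors basement membranes to the fibrils beneath. Its level was 3.31 and 4.43 FPKM in KL25 against 7.90 and 4.97 in KL, and the gap between KL25 replicate 2 and KL replicate 2 was small. The difference of -0.59 (SE 0.340) did not pass in limma (adjusted p = 0.942), and its unadjusted p in the authors' deposited table is 0.181. Without KL replicate 1 the difference was -0.30, and without KL replicate 2 it was -0.88. Col18a1 stood at 3.66 and 2.12 times the FPKM of Col15a1 in KL25 and at 0.477 and 0.773 times in KL, so the chain with the higher level was Col18a1 in both KL25 libraries and Col15a1 in both KL libraries.

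**Figure D3:**
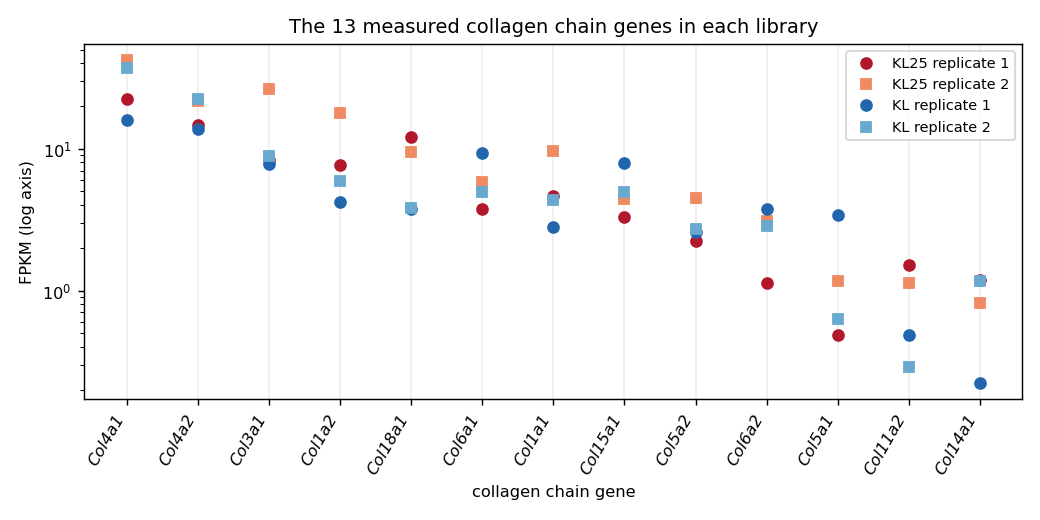
FPKM (log axis) of the 13 measured collagen chain genes, 1 point per library. Col18a1, Col1a2, Col1a1 and Col11a2 have both KL25 points above both KL points, and Col15a1 has both below.

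Type I and type III chains had higher means in KL25, with their highest values in KL25 replicate 2. Type I collagen, the main protein of connective tissue fibrils, is a trimer of a pair of Col1a1 chains and a single Col1a2 chain. Col1a2 (chromosome 6, from 4504814 to 4541544) was at 7.70 and 17.8 FPKM in the KL25 pair and 4.18 and 5.92 in the KL pair. Col1a1 (chromosome 11, from 94936224 to 94953042) was at 4.64 and 9.61 FPKM in the KL25 libraries and 2.81 and 4.38 in those of KL. The groups did not overlap for either chain, but for Col1a1 KL25 replicate 1 lay only just above KL replicate 2. The means of Col1a2 were 12.8 ± 7.16 and 5.05 ± 1.23 FPKM and those of Col1a1 7.13 ± 3.51 and 3.60 ± 1.11 FPKM, folds of 2.52 and 1.98. Neither passed in limma: the difference on the log2(FPKM + 1) scale was 1.09 (SE 0.453, adjusted p = 0.942) for Col1a2 and 0.77 (SE 0.419, adjusted p = 0.942) for Col1a1. Without KL25 replicate 2 these differences were 0.54 and 0.32, and without KL25 replicate 1 they were 1.65 and 1.23.

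Col3a1, the chain of type III collagen of distensible tissues such as lung and vessel walls, was at 8.37 and 26.2 FPKM in the KL25 pair and 7.80 and 8.82 in the KL pair. KL25 replicate 1 lay between the KL libraries, so the 2.08-fold higher mean in KL25 rests on replicate 2: the limma difference of 0.78 (SE 0.547, adjusted p = 0.942) was 0.011 without it and 1.55 without KL25 replicate 1. Fibroblast markers were highest in the same library. The 8 markers, among them Pdgfra, Dcn and Lum, summed to 30.7 and 87.6 FPKM in the KL25 libraries and 39.5 and 50.6 in those of KL, highest in KL25 replicate 2 and lowest in KL25 replicate 1. All 8 were measured, and Tcf21 was listed at 0 in KL25 replicate 1. Of the 8, 0 had groups that did not overlap, beside 19.1% of all genes tested with KL25 above and 15% below. Their part in the levels of these chains was not tested. Relative to that sum, Col1a2 stood at 0.251 and 0.203 in KL25 against 0.106 and 0.117 in KL, Col1a1 at 0.151 and 0.110 against 0.0711 and 0.0865, and Col3a1 at 0.273 and 0.299 against 0.197 and 0.174. Each of these ratios was higher in both KL25 libraries. They were not tested for significance, and a two-sided exact permutation test of 2 against 2 libraries cannot go below p = 0.333.

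The FPKM ratios between chains of type I and III collagen varied between libraries. Whether they varied beyond counting error was not tested. Within a library Col1a2 was at 1.35 to 1.85 times the FPKM of Col1a1. The protein holds more Col1a1 than Col1a2 chains, but a ratio of transcript levels is not a measure of protein. The transcript ratio was 1.66 and 1.85 in KL25 and 1.49 and 1.35 in KL. Col3a1 was at 1.80 to 2.77 times Col1a1, with no order by group.

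Among the minor fibrillar chains Col11a2 had the higher mean in KL25, and the groups of Col5a1 and Col5a2 overlapped. Type V and XI chains seed fibrils and set their width. Col11a2 was at 1.51 and 1.13 FPKM in the KL25 pair and 0.483 and 0.291 in the KL pair, a 3.41-fold higher mean without overlap. Its log2 fold change in the authors' deposited table is 1.71 (SE 0.654), with an unadjusted p of 0.00879 that became 0.739 on adjustment, and in limma the difference was 0.74 (SE 0.375, adjusted p = 0.942). Col11a2 is best known from cartilage. The 6 cartilage markers in the table summed to 2.97 and 5.80 FPKM in KL25 and to 1.03 and 2.63 FPKM in KL. Acan, Chad and Cytl1 had the higher mean in KL25, and Comp, Matn1 and Matn3 had the lower. The largest single values were Acan in KL25 replicate 1 (1.40 FPKM) and Cytl1 in KL25 replicate 2 (4.23 FPKM), and both genes overlapped between groups. Only Cytl1 of them was measured, Matn1 was listed at 0 in all libraries but KL replicate 1, and Col2a1, the main cartilage collagen, was at 0 to 0.0852 FPKM. Their part in the Col11a2 level was not tested. Col5a1 was at 3.43 FPKM in KL replicate 1 and at 0.483 to 1.16 FPKM in the others. Col5a2 was at 2.24 and 4.50 FPKM in the KL25 libraries and 2.60 and 2.73 in those of KL, again highest in KL25 replicate 2. Type V collagen most often pairs these chains, yet Col5a2 stood at 3.88 to 4.64 times Col5a1 in all libraries but KL replicate 1, where it was at 0.758 times. Col27a1, a developmental fibrillar chain, was at 1.07 and 0.588 FPKM in the KL25 pair and 0.589 and 0.142 in the KL pair, below the limit for testing. Col2a1, Col5a3, Col11a1 and Col24a1 did not exceed 0.2205 FPKM in any library.

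Col4a1 and Col4a2, the chains of the type IV collagen found in nearly all basement membranes, did not separate by group. Their genes lie on chromosome 8 on opposite strands, with annotated starts 21 bases apart and 22 bases of overlap. Whether counting used the strand is not given in the labels, so reads in that overlap are uncertain. Col4a1 was at 22.4 and 42.1 FPKM in the KL25 libraries and 15.9 and 37.3 in those of KL. Col4a2 was at 14.7 and 21.6 FPKM in the KL25 libraries and 13.7 and 22.6 in those of KL. In both groups replicate 2 held the higher value, and the groups overlapped. Their means were 32.2 ± 13.9 and 26.6 ± 15.1 FPKM for Col4a1 and 18.2 ± 4.92 and 18.1 ± 6.25 FPKM for Col4a2. The differences of 0.32 (SE 0.532) and 0.017 (SE 0.379) did not pass in limma (adjusted p = 0.951 and 0.996), and both turned negative without KL replicate 1 or KL25 replicate 2. Col4a2 also turned negative on median centring.

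Endothelial markers were likewise higher in replicate 2 of each group: 8 markers, among them Pecam1, Cdh5 and Kdr, summed to 98.3 and 195 FPKM in KL25 against 118 and 299 in KL. Relative to this sum Col4a1 stood at 0.228 and 0.215 in KL25 and at 0.134 and 0.125 in KL, so that the KL25 libraries were higher, while Col4a2 overlapped (0.149 and 0.111 against 0.116 and 0.0755). The Col4a1 level itself overlapped, and all 8 endothelial markers had a negative difference, with a median of -0.36. Over all genes tested 53.1% of differences were positive. Although the pair starts from adjacent sites, Col4a1 ranged from 1.16 to 1.95 times Col4a2, lowest in KL replicate 1 and highest in KL25 replicate 2. Epithelial cells also make type IV chains, and their markers summed to 3220 and 1240 FPKM in KL25 against 798 and 716 in KL. The ratio to endothelial markers takes no account of them. The part of endothelial and epithelial content in the levels of the pair was not tested.

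**Figure D4:**
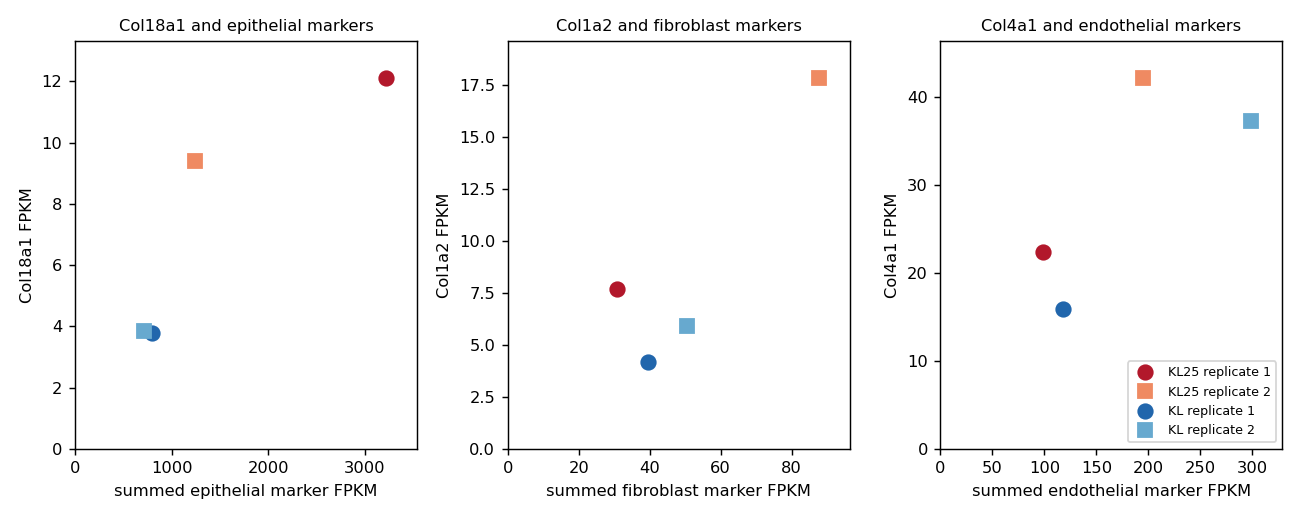
FPKM of Col18a1, Col1a2 and Col4a1 (vertical axes) against the summed FPKM of epithelial, fibroblast and endothelial markers (horizontal axes), 1 point per library. Col4a1 separates libraries by replicate number rather than group, at 15.9 and 22.4 FPKM in the replicates 1 and 37.3 and 42.1 FPKM in the replicates 2.

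The remaining type IV chains, which form the specialised networks of alveolus, kidney and smooth muscle, lay far below that pair. Col4a5 was at 0.838 to 1.02 FPKM with little spread between libraries. Col4a3 was at 0.143 and 0.309 FPKM in the KL25 libraries and 0.423 and 0.576 in those of KL, without overlap, while Col4a4, whose start lies 72 bases away on the other strand, overlapped at 0.230 and 0.518 FPKM in KL25 against 0.453 and 0.281 in KL. Unadjusted p in the authors' deposited table is 0.122 for Col4a3 and 0.991 for Col4a4. Col4a6 was at 0.421 FPKM in KL25 replicate 2 and at 0.105 to 0.123 FPKM elsewhere. Alveolar type 1 cells are a known source of Col4a3 and Col4a4 in the lung. Their markers summed to 311 and 284 FPKM in the KL25 libraries and 172 and 278 in those of KL. Of 5 measured markers 3 had a positive and 2 a negative difference, and 4 overlapped between groups. Their part in these levels was not tested.

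The 3 main type VI chains had lower means in KL25. Col6a1 was at 3.75 and 5.81 FPKM in the KL25 pair and 9.34 and 4.93 in the KL pair, and Col6a2 at 1.14 and 3.07 FPKM in the KL25 libraries and 3.74 and 2.86 in those of KL. Both overlapped between groups, and KL replicate 1 held the highest value of each. In limma the differences were -0.46 (SE 0.399) for Col6a1 and -0.54 (SE 0.422) for Col6a2, neither of which passed (adjusted p = 0.942 for each). Leaving out 1 library gave -0.060 (without KL replicate 1) to -0.86 (without KL replicate 2) for Col6a1. For Col6a2 it gave -0.072 (without KL25 replicate 1) to -1.0 (without KL25 replicate 2). Col6a3, the third chain of the trimer, was at 0.188 and 0.469 FPKM in the KL25 pair and 0.827 and 0.726 in the KL pair, without overlap, but below the limit for testing, and its unadjusted p in the authors' deposited table is 0.0971. The levels of the 3 chains, which assemble together, were unequal in each library: Col6a1 stood at 6.79 to 20.0 times Col6a3. Col6a1 and Col6a2 lie in tandem on chromosome 10. Col6a4, Col6a5 and Col6a6, alternatives to the third chain in other tissues, were at 0 to 0.198 FPKM.

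Fibril-associated chains, which decorate the surface of fibrils, were low. Col14a1 was at 1.19 and 0.815 FPKM in the KL25 libraries and 0.222 and 1.16 in those of KL, and its difference of 0.30 (SE 0.450) did not pass in limma (adjusted p = 0.946). Col16a1 was at 0.475 to 0.655 FPKM, close to equal in all libraries, and Col12a1 at 0.174 to 0.510 FPKM, highest in KL replicate 1. Col20a1 was at 1.07 and 1.27 FPKM in KL25 replicate 1 and KL replicate 2 and at 0.318 and 0.337 FPKM in the other libraries. Col9a2, a type IX chain of cartilage fibrils, was listed at 0 in each KL25 library, and KL held 0.0854 and 0.256 FPKM. For Col9a2 the authors' deposited table has an unadjusted p of 0.0388 and no adjusted p, on a mean normalized count of 2.83. Col9a3 and Col22a1 were also listed at 0 in both KL25 libraries and above 0 in both KL libraries, at 0.00776 to 0.220 FPKM. Col9a1 was above 0 in KL replicate 1 alone, where the deposited mean corresponds to 3 counts, and Col6a6 had the same count in the same library. Col19a1 did not exceed 0.276 FPKM.

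Short chain (types VIII and X), transmembrane and anchoring fibril chains were each below 1 FPKM in all libraries. Col8a1, of vessel walls, was at 0.541 and 0.726 FPKM in the KL25 pair and 0.567 and 0.204 in the KL pair, and Col8a2 at 0.150 to 0.355 FPKM. Col10a1, best known from hypertrophic cartilage, was at 0.842 and 0.530 FPKM in the KL25 libraries and 0.304 and 0 in those of KL. The groups of Col10a1 did not overlap, and its mean normalized count of 15.1 was small. Col7a1, the anchoring fibril chain that ties epithelia to the stroma, was at 0.363 to 0.562 FPKM with overlapping groups. Col23a1, a transmembrane chain, was at 0.357 and 0.300 FPKM in the KL25 pair and 0.726 and 0.447 in the KL pair. Col17a1, a hemidesmosome chain of basal cells, was at 0.766 FPKM in KL replicate 1 and at 0 to 0.0861 FPKM in the others. Basal cell markers were also highest in that library, where 5 markers summed to 47.4 FPKM against 0.454 to 4.29 FPKM elsewhere. Their part in the Col17a1 value was not tested. Col25a1, a neuronal chain, was likewise highest in KL replicate 1 (0.476 FPKM, and 0 to 0.0724 FPKM elsewhere), and Col13a1 and Col28a1 did not exceed 0.338 FPKM. Col26a1 was not analysed here.

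Many of the low chains rested on few counts. Of the 43 chains, 13 had a mean normalized count below 10, and 17 were listed at 0 in at least 1 library. KL replicate 1 listed 1 chain at 0, against 11 in KL replicate 2 and 7 and 11 in the KL25 libraries. KL replicate 1 had the largest size factor, but the number listed at 0 did not follow the size factors, which were 1.09 in KL replicate 2 and 0.853 and 0.823 in KL25. Of all genes 2496 were above 0 in KL replicate 1 alone, and 147 to 451 in each other library alone. A value of 0 here does not show that a chain was absent.

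Across the 13 measured chains 0 passed in limma in either direction, as did 0% of the 12476 genes tested in each direction. The targeted gene Usp25 did not pass either, at a limma difference of -3.07 (SE 0.466, adjusted p = 0.942). Not passing here thus does not show that a gene was unchanged. At an unadjusted p below 0.05 in limma there was 1 chain, Col18a1, which was higher, beside 2.16% of all genes higher and 1.07% lower. In 4 of 13 chains (30.8%) KL25 lay above KL without overlap, beside 19.1% of all genes, and in 1 of 13 (7.69%) it lay below, beside 15% of all genes. Positive differences were found for 9 of 13 chains (69.2%, beside 53.1% of all genes). The median difference of the 13 was 0.29 on the log2 scale, beside 0.030 for all genes, and it moved with single libraries: it was -0.045 without KL replicate 1, 0.038 without KL25 replicate 2, 0.60 without KL25 replicate 1 and 0.64 without KL replicate 2. In the authors' deposited table, where all 43 chains have an unadjusted p, 2 chains were higher and 1 lower at a value below 0.05, beside 1.62% and 2.46% of all genes. By library, 5 of the 13 chains had their highest value in KL25 replicate 2, 4 in replicate 1 of KL, 3 in replicate 1 of KL25 and 1 in replicate 2 of KL, beside 17.6%, 30.2%, 25.4% and 26.9% of all genes.

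**Figure D5:**
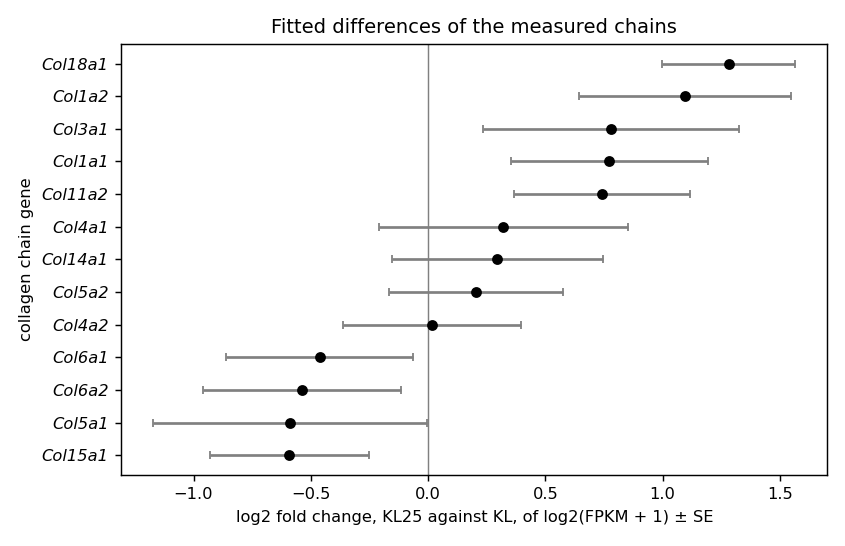
Fitted difference of each of the 13 measured collagen chain genes, KL25 against KL, on the log2(FPKM + 1) scale (points) with its standard error (bars). The values run from -0.59 for Col15a1 to 1.28 for Col18a1, and no chain passed in limma after adjustment over all genes.

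Among the enzymes and chaperones that modify, fold and trim collagen no gene passed in limma. Of 31 listed genes 21 were measured, 17 with a positive and 4 with a negative difference. Their median was 0.14 on the log2 scale, and 0 passed in either direction. Among all genes tested 53.1% of differences were positive, the median was 0.030 and 0% passed. P4ha2, a catalytic subunit of the prolyl 4-hydroxylase that stabilises the triple helix, was at 11.6 and 8.61 FPKM in the KL25 libraries and 5.71 and 3.50 in those of KL. The groups did not overlap, and the difference of 1.00 (SE 0.342) did not pass in limma (adjusted p = 0.942). Its companion subunit gene P4ha1 overlapped, at 19.8 and 18.5 FPKM against 19.1 and 16.5 FPKM. Bmp1, the protease that removes the C-terminal propeptide of fibrillar procollagens, was at 6.72 and 8.04 FPKM in the KL25 pair and 3.57 and 6.40 in the KL pair. Serpinh1, the collagen chaperone of the endoplasmic reticulum, followed replicate number, at 8.54 and 16.5 FPKM in the KL25 libraries and 6.96 and 16.2 in those of KL. Mia3, which exports large procollagens from the endoplasmic reticulum, was at 9.60 and 10.7 FPKM in the KL25 pair and 13.5 and 10.1 in the KL pair. Colgalt1, which adds galactose to collagen hydroxylysine, was at 130 and 129 FPKM in the KL25 libraries and 80.8 and 146 in those of KL. The groups of Mia3 and Colgalt1 overlapped.

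Of 10 collagen receptors 5 were measured, 2 with a positive and 3 with a negative difference, and 0 passed. Among all genes tested 53.1% of differences were positive and 0% passed. The median of the receptors, -0.039, turned to 0.26 when KL replicate 1 was left out and to -0.48 when KL replicate 2 was. Ddr1, a receptor tyrosine kinase of epithelia that binds collagen, was at 7.16 and 3.91 FPKM in the KL25 pair and 2.30 and 3.07 in the KL pair, without overlap. Lair1, an inhibitory collagen receptor of leukocytes, was at 11.4 and 16.6 FPKM in the KL25 libraries and 21.4 and 25.9 in those of KL, also without overlap. The limma differences were 0.79 (SE 0.370) and -0.73 (SE 0.322), with an adjusted p of 0.942 for each. On leaving out 1 library they ranged from 0.42 to 1.16 for Ddr1 and from -0.98 to -0.48 for Lair1, the smaller size in each case without KL25 replicate 1. The sum of the epithelial markers was higher in KL25 and that of the leukocyte markers lower, and their part in these differences was not tested. The integrin chains Itga2 and Itgb1, which together bind collagen, overlapped between groups, with Itga2 at 22.5 and 8.94 FPKM in KL25 against 18.6 and 5.50 in KL and Itgb1 at 111 and 107 FPKM against 138 and 90.7 FPKM. Itga10, below the limit for testing in FPKM, was at 0.286 and 0.304 FPKM in the KL25 libraries and 0.0142 and 0.0543 in those of KL. Its unadjusted p in the authors' deposited table is 0.00354 and its adjusted p 0.476.

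Collagen-degrading enzymes and their inhibitors numbered 14, of which 11 were measured. Of these, 7 had a positive and 4 a negative difference (median 0.19), and 0 passed. Among all genes tested 53.1% of differences were positive and 0% passed. Mmp13, an interstitial collagenase, was at 15.2 and 6.97 FPKM in the KL25 pair and 4.81 and 1.22 in the KL pair, a 3.67-fold higher mean. The groups did not overlap, and the difference of 1.66 (SE 0.598) did not pass in limma (adjusted p = 0.942). Leaving out KL replicate 2 gave 0.97, and leaving out KL replicate 1 gave 2.36. Mmp12, a macrophage elastase, and Timp1, a protease inhibitor, were also higher in KL25 without overlap, at 49.4 and 62.7 against 35.2 and 41.1 FPKM and at 29.1 and 26.1 against 24.4 and 14.6 FPKM. Mmp8, the neutrophil collagenase, was at 254 FPKM in KL replicate 1 and at 12.9 to 16.8 FPKM in the others. Its unadjusted p in the authors' deposited table is 0.0469, and the difference of -2.04 on the log2(FPKM + 1) scale was -0.059 without KL replicate 1. Ctsk, a lysosomal collagenase, was the most abundant at 495 to 1473 FPKM, with its extremes in the KL libraries.

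Of 12 matrix genes that associate with fibrils 10 were measured, 6 with a positive and 4 with a negative difference, and 0 passed. Among all genes tested 53.1% of differences were positive and 0% passed. For 8 of the 10 matrix genes the highest value was in KL25 replicate 2, as for 17.6% of all genes. The median of the matrix genes, 0.29, was -0.20 without that library and 0.75 without KL25 replicate 1. Dcn, Lum and Dpt also serve as fibroblast markers here. Sparc, which binds collagen and aids its assembly, was at 69.8 and 127 FPKM in the KL25 libraries and 30.1 and 58.5 in those of KL. Its groups did not overlap, and the difference of 1.15 (SE 0.486) did not pass in limma (adjusted p = 0.942). Leaving out KL replicate 1 gave 0.68, and leaving out KL25 replicate 2 gave 0.72. The proteoglycan Dcn, which coats type I fibrils, was at 20.6 and 59.7 FPKM in the KL25 pair and 28.3 and 30.4 in the KL pair, with KL25 replicate 2 highest as for Col1a2 and Col3a1. Bgn, its relative, followed replicate number instead, at 11.8 and 35.5 FPKM in the KL25 libraries and 11.8 and 35.6 in those of KL. Fn1, the fibronectin on which collagen fibrils are laid down, overlapped at 86.4 and 75.2 FPKM in KL25 against 86.3 and 114 in KL.

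Markers of smooth muscle and pericytes and of mesothelium, other sources of matrix, were also read. The 9 smooth muscle and pericyte markers summed to 17.6 and 25.1 FPKM in the KL25 libraries and 19.1 and 24.5 in those of KL, so their order followed replicate number. The 5 mesothelial markers in the table summed to 141 and 83.9 FPKM in KL25 against 48.2 and 34.6 in KL, largely through Msln. Within KL25, Msln was higher in replicate 1 (138 against 74.1 FPKM), whereas Upk3b, Wt1, Gpm6a and Lrrn4 were higher in replicate 2. The order of the sum within KL25 is thus that of Msln and not of the other markers.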

How the data were processed

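RNA of 4 mouse lung tumour preparations was sequenced from a strand-specific poly(A) library. Per the labels' protocols, cutadapt trimmed the reads, which were then aligned to GRCm38 and counted per gene with HTSeq. Sources used here name no aligner, version or strand setting, and the submitters' processing notes list GRCm38 and GRCm39. The authors deposited values per library whose header names no unit; they were read as FPKM because they are not whole and sum to 525973 to 564975. Per the file headers, the deposited table also has a signal (the mean normalized count), the log2 fold change and SE, the score of the authors' test, and unadjusted and adjusted p-values, the last NA for 6653 of 21445 rows. Rows whose gene name had become a date (25) were left out. Another table held these rows in another order, with a different direction word for some genes, and a further one held a title only. Neither was used here. A further part of the genotype, shared by both groups, is not reported here.

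Size factors were read from genes above 0 in 1 library, whose deposited means were whole multiples of a step within 0.01 of a step in 100% of cases. Counts per gene and library were not recovered, so no counting intervals are given. The comparison was KL25 against KL with limma 3.58.1 (R 4.3.3), using a mean-variance trend on log2(FPKM + 1) over the 12476 genes averaging 1 FPKM or more in KL25 or KL, without covariates, with Benjamini-Hochberg adjustment over all of them and 0.05 as the threshold. This scale understates the change of low genes. With 2 libraries per group, p-values measure the spread between these libraries. The fit was tested on simulated data.

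The chains named were those averaging 5 FPKM or more in KL25 or KL, those with a deposited unadjusted p below 0.05, and partners in a trimer. From each other list up to 4 genes with the lowest unadjusted p and at least 5 FPKM were named. The other chains, Itga10, P4ha1, Serpinh1 and Ctsk were added after their values were seen. The members and lists were chosen with earlier results of these data known. Coordinates are from GENCODE M21 (GRCm38), matched by symbol, and 44 chain genes are annotated there. Alternatives covered the pseudocount (0.1 and 5), filter, scaling, weights, threshold, replicate number and leaving out each library.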

Additional observations from a re-analysis of the deposited data

How the results depend on the processing

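No gene and no collagen chain passed under any of the 14 alternatives run, a threshold of 0.1 among them. A count over the 13 chains and their median moved when the filter was removed. Over all 43 chains 7 had both KL25 libraries below both KL libraries, 5 had both above, and the median was -0.018. The chains added in this way averaged below 1 FPKM in both groups. Without the filter the median of all genes was -0.044, and the shares of all genes with KL25 above or below were not counted. On leaving out 1 library, 4 to 8 chains had the KL25 libraries above, 1 to 5 had them below, and the median ranged from -0.045 to 0.64. For the same chain, fewer libraries can only keep or remove an overlap, so these counts do not measure dependence on single libraries. The number of chains measured also changed, from 12 to 16, and shares of all genes were not counted for these settings. With 1 library left in a group, that library is assumed to vary like the other group.

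Of 402 values of 29 single genes under the alternatives, 387 kept their direction and their side of the threshold. In 15 the sign turned, and the cause was not tested. Without KL replicate 1 the differences of Col4a1, Col4a2, Col14a1, Colgalt1, Itgb1 and Mia3 were -0.27, -0.32, -0.12, -0.18, 0.26 and 0.0034. Without KL25 replicate 2 those of Col4a1, Col4a2, Col5a2 and Dcn were -0.12, -0.25, -0.18 and -0.49. Itga2 was at -0.36 without replicate 2 of KL and -0.18 without replicate 1 of KL25, and Bgn at 0.75 in each of these. At the other end on leaving out 1 library stood Col4a1 at 0.91, Col4a2 at 0.36, Col14a1 at 0.71, Col5a2 at 0.59, Colgalt1 at 0.67, Itga2 at 1.23, Itgb1 at -0.34, Mia3 at -0.38, Bgn at -0.76 and Dcn at 1.00. On median centring Col4a2 was at -0.0090. On leaving out 1 library the list medians ranged from 0.0020 to 0.38 for synthesis and processing, from -0.48 to 0.26 for receptors, from 0.033 to 0.32 for degradation and from -0.20 to 0.75 for fibril-associated genes, so that those of receptors and of fibril-associated genes turned sign. No scaling moved the median of all genes by more than 0.1.

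Replicate numbers are shared between the groups but no label says that they pair the mice. Same-numbered libraries deviated from their group means with a correlation of 0.152 over 12476 genes. With replicate number as a block 0 genes passed, the adjusted p of Col18a1 was 0.868, and the median of the chains was 0.29.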
